A study of Citrus sinensis with 4 samples.

Results

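The genes described here are those whose difference between 2 sweet orange cultivars pointed one way at 70 days after full bloom and the other way at 50 days. They were taken from RNA of fruit endocarp, sequenced as 4 libraries: Dahongtiancheng and Bingtangcheng at 70 days, and Dahongtiancheng and Bingtangcheng at 50 days, each with 1 library. The genes were chosen by the measured levels in these same 4 libraries. Raw fragments of each gene were scaled to the library sum as CPM (counts per 1000000 fragments) and 0.5 was added. A gene was taken where its 2 highest libraries were 70-day Dahongtiancheng with 50-day Bingtangcheng, or 70-day Bingtangcheng with 50-day Dahongtiancheng. The second highest value had to be at least 2 and at least 1.5 times the third highest, and the highest value had to be at least 2 times the lowest. Of 28436 genes with identifiers of the form Cs or orange1.1t, 133 met these conditions. In 91 the levels were high in 70-day Dahongtiancheng and 50-day Bingtangcheng, and these are called Dahongtiancheng-late genes here because their level was higher at the later stage in that cultivar. In the other 42 the levels were high in 70-day Bingtangcheng and 50-day Dahongtiancheng, and these are called Bingtangcheng-late genes.

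Endocarp is the inner layer of the citrus fruit wall, and the juice sacs grow out of it. In the weeks after bloom the young fruit passes from cell division towards cell expansion, during which the vacuoles of the juice sac cells take up organic acids and sugars. The files give no gene names or descriptions, and 0 of their identifiers matched the RefSeq gene table for sweet orange, so the genes are described by identifier, position, structure and level, and no role is given to any of them. The labelled tissue could not be checked against marker genes for the same reason.

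The libraries held 16192148 (Dahongtiancheng) and 16445383 fragments (Bingtangcheng) at 70 days, and 16253052 (Dahongtiancheng) and 14040916 fragments (Bingtangcheng) at 50 days. With 1 library per group there is no replicate spread and no test. A difference between cultivars or stages cannot be told apart from variation between single libraries, and in bulk RNA fewer cells of a type and less RNA per cell cannot be told apart. Intervals in parentheses are 95% exact (Clopper-Pearson) counting intervals of a ratio between 2 libraries and cover counting error only. Folds and log2 ratios use counts scaled with TMM factors, which correct for differences in library composition. Against a count of 0 the fold was computed against 3 fragments in that library, and the exact interval then starts lower than that fold.

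A crossed arrangement was rare beside an arrangement by stage, and about as frequent as an arrangement by cultivar. Of 14949 genes whose second highest value reached 2, the 91 Dahongtiancheng-late genes made up 0.609% and the 42 Bingtangcheng-late genes 0.281%. The same thresholds took 69 genes (0.462%) that were high in both Dahongtiancheng libraries and 72 (0.482%) that were high in both Bingtangcheng libraries. They took 532 genes (3.56%) high in both 70-day libraries and 2006 (13.4%) high in both 50-day libraries. The stage counts moved with the scaling, to 848 and 1434 with TMM factors, whereas the crossed counts were 83 and 38.

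With library sums, the asymmetry between the crossed groups was already present before any threshold on the gap. Without a gap the order of libraries can turn on small shifts in scaling, and it is given for library sums only. Beside TMM factors, library sums shifted the median log2 cultivar ratio of all tested genes by 0.027 at 70 days and -0.053 at 50 days. Both shifts point towards the pair of 70-day Dahongtiancheng and 50-day Bingtangcheng, which is the more frequent of the crossed pairs. Among the 14949 genes, 1766 (11.8%) had 70-day Dahongtiancheng and 50-day Bingtangcheng as their 2 highest libraries, against 1030 (6.89%) with 70-day Bingtangcheng and 50-day Dahongtiancheng. Of these, 5.15% and 4.08% passed the thresholds. For genes with both Dahongtiancheng libraries highest the share was 5.95%, and for both Bingtangcheng libraries it was 5.53%. For genes with both 70-day libraries highest it was 22.0%, and for both 50-day libraries 27.6%.

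**Figure D1:**
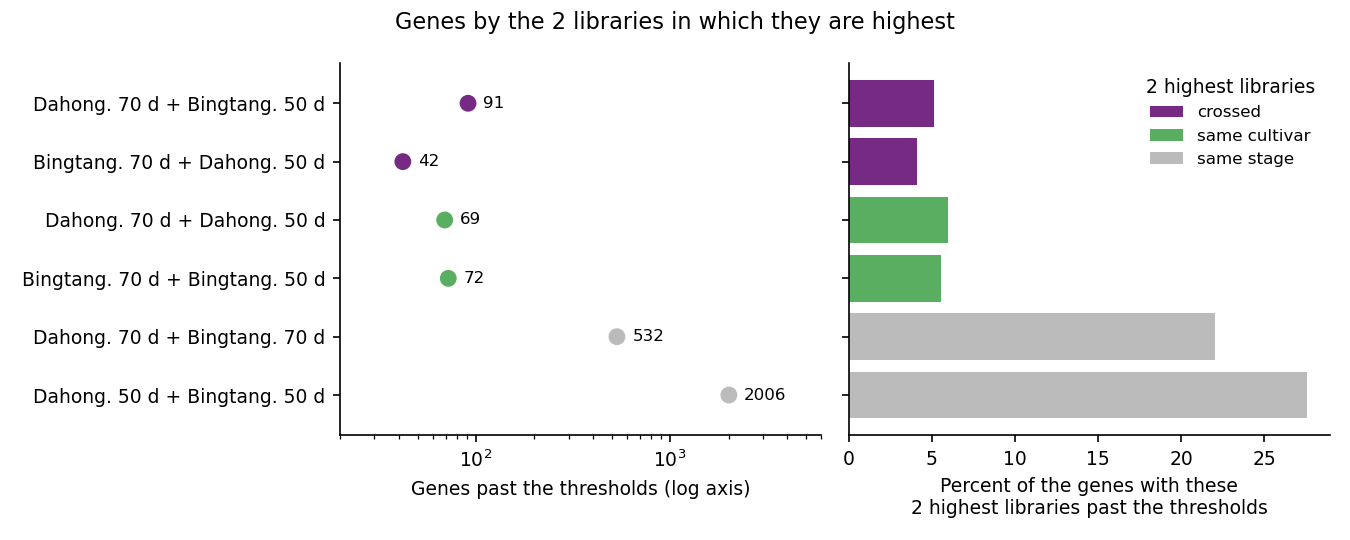
Number of genes past the thresholds (left, log axis) and percent of the genes with the named 2 highest libraries that passed them (right), for each of the 6 pairs of libraries. The crossed pairs, with 91 and 42 genes, lie near the same-cultivar pairs with 69 and 72, and far below the same-stage pairs with 532 and 2006.

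The size of the difference was larger at 70 than at 50 days in most of the Dahongtiancheng-late genes. Their median log2 ratio of Dahongtiancheng over Bingtangcheng was 1.92 at 70 days and -1.09 at 50 days, beside -0.02 and 0.00066 for all genes tested at those stages. In 75 of the 91 the ratio at 70 days was the larger in size. In the Bingtangcheng-late genes the medians were -1.68 at 70 days and 1.61 at 50 days, and the ratio at 70 days was larger in 25 of the 42. The signs of these ratios were fixed by the choice of the genes.

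Of the 133 genes, 68 differed beyond counting error and by at least 2-fold at both stages. A difference was called where a gene had at least 10 fragments and 1 CPM in either library, levels that differed 2-fold or more, and a 99% exact counting interval of the ratio clear of 1. At 70 days 84 of the 91 Dahongtiancheng-late genes were called higher in Dahongtiancheng, where 6.92% of the 15449 genes tested were. At 50 days 46 of them were called lower in Dahongtiancheng, where 3.54% of 15675 were. Of the 42 Bingtangcheng-late genes, 36 were called lower in Dahongtiancheng at 70 days (5.76% of all tested) and 32 higher at 50 days (2.59% of all tested). Over all genes tested, calls in each direction were also more frequent at 70 than at 50 days. Larger cultivar differences at 70 days were thus not particular to the reversing genes. The calls rest on the libraries that chose the genes, so the excess over these shares is not a result.

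Both calls held, in opposite directions, for 42 of the 91 Dahongtiancheng-late genes and for 26 of the 42 Bingtangcheng-late genes, where 0.655% and 0.334% of the 14954 genes tested at both stages showed the same. Together these 68 genes were 51.1% of the 133. They were 45.9% of the 148 genes with such opposite calls. Of the remaining genes with opposite calls, 29 and 11 had a crossed pair of highest libraries but missed a threshold. Another 19 had both 70-day libraries highest and 21 had both 50-day libraries highest. In these 40 the libraries of 1 stage stood above those of the other in both cultivars. Only 1 stage was called in 62 of the 133 genes, at 70 days in 52 and at 50 days in 10, and 3 were called at neither stage.

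Seen from the stages, the same genes differed in opposite directions in the cultivars. In Dahongtiancheng 80 of the 91 Dahongtiancheng-late genes were called higher at 70 than at 50 days, where 9.39% of the 15738 genes tested were. In Bingtangcheng 67 of them were called lower at 70 days, where 13.2% of 15740 were. Of the Bingtangcheng-late genes, 26 were called lower at 70 days in Dahongtiancheng (12.8% of all tested), and all 42 were called higher at 70 days in Bingtangcheng (7.9% of all tested). These stage ratios share their libraries with the cultivar ratios and are no separate evidence.

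**Figure D2:**
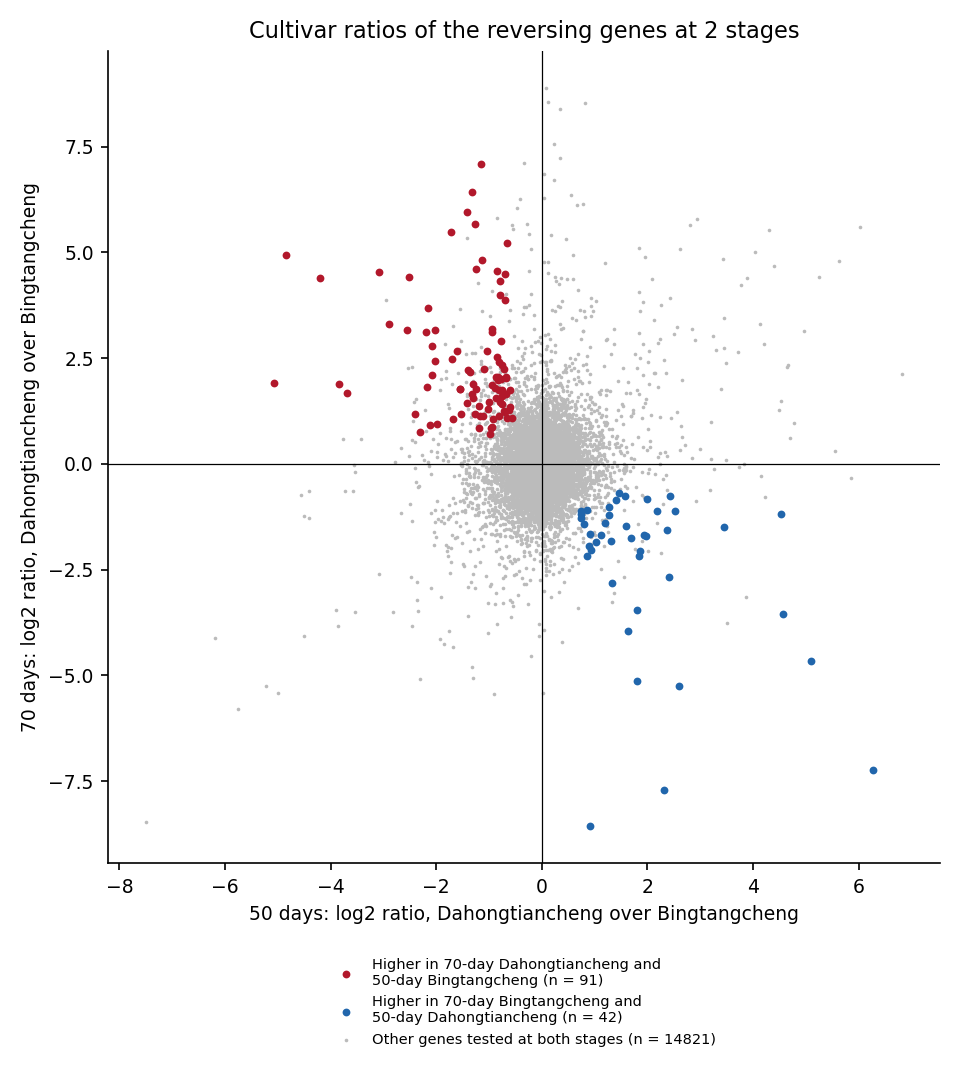
Log2 ratio of Dahongtiancheng over Bingtangcheng at 70 days (vertical) against the ratio at 50 days (horizontal) for the 14954 genes tested at both stages. The 91 Dahongtiancheng-late genes (red) fill the upper left and the 42 Bingtangcheng-late genes (blue) the lower right, as the rule requires. The red points reach further along the vertical axis, up to 7.10, than along the horizontal one, down to -5.07.

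The clearest Dahongtiancheng-late genes were close to silent in 2 of the 4 libraries. The gene orange1.1t00607 (unplaced sequence, 6988034 to 6989803, minus strand) had 88 fragments at 70 days in Dahongtiancheng and 1 in Bingtangcheng, and at 50 days 1 in Dahongtiancheng and 81 in Bingtangcheng. Its level was 87.7-fold higher (15.3 to 3503) in Dahongtiancheng at 70 days and 90.3-fold lower (15.8 to 3611) at 50 days. The high values, like the low ones, were nearly equal across stages, so that the gene looked on or off in each library.

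The same on and off picture was seen in Cs5g04180 (chromosome 5, 2337899 to 2339071, plus strand). It had 59 fragments at 70 days in Dahongtiancheng and 1 in Bingtangcheng, and at 50 days 1 in Dahongtiancheng and 51 in Bingtangcheng. The folds were 58.8 higher (10.2 to 2362) in Dahongtiancheng at 70 days and 56.9 lower (9.76 to 2290) at 50 days. Both models consist of a single exon.

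The gene orange1.1t00612 (unplaced sequence, 7026259 to 7029695, minus strand) lies 36456 bases from orange1.1t00607, with 4 other gene models between them. It had 39 fragments at 70 days in Dahongtiancheng and 0 in Bingtangcheng, and at 50 days 5 in Dahongtiancheng and 35 in Bingtangcheng. Computed against 3 fragments, it was 12.96-fold higher in Dahongtiancheng at 70 days, with an interval starting at 10.05. At 50 days it was 7.81-fold lower (3.05 to 25.5). Its high and its low libraries were those of its neighbour. The intronless model orange1.1t00940 (unplaced sequence, 14194644 to 14196995, plus strand) had 27 fragments at 70 days in Dahongtiancheng and 1 in Bingtangcheng, and at 50 days 2 in Dahongtiancheng and 26 in Bingtangcheng.

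Other Dahongtiancheng-late genes were expressed in every library and rested on many fragments. Cs1g06240 (chromosome 1, 6210791 to 6211087, plus strand), a short model of 297 bases without an intron, had 844 fragments at 70 days in Dahongtiancheng and 148 in Bingtangcheng, and at 50 days 144 in Dahongtiancheng and 427 in Bingtangcheng. It was 5.68-fold higher (4.77 to 6.82) in Dahongtiancheng at 70 days and 3.31-fold lower (2.73 to 4.02) at 50 days. Its 2 low libraries had nearly the same count, while its 2 high libraries differed.

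Cs3g20840 (chromosome 3, 23809717 to 23811848, minus strand) had 1156 fragments at 70 days in Dahongtiancheng and 166 in Bingtangcheng, and at 50 days 352 in Dahongtiancheng and 1344 in Bingtangcheng. The folds were 6.94 higher (5.89 to 8.22) in Dahongtiancheng at 70 days and 4.26 lower (3.78 to 4.80) at 50 days. Each of its high libraries stood over 3 times above each of its low ones.

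The Dahongtiancheng-late genes most abundant by their second highest CPM had a strong difference at 70 days and a mild one at 50 days. An order by level per length would differ. Cs2g03780 (chromosome 2, 1760534 to 1761328, minus strand) had 5457 fragments at 70 days in Dahongtiancheng and 1569 in Bingtangcheng, and at 50 days 2679 in Dahongtiancheng and 4473 in Bingtangcheng. Its level was 3.47-fold higher (3.28 to 3.67) in Dahongtiancheng at 70 days and 1.86-fold lower (1.77 to 1.95) at 50 days. The difference at 50 days therefore exceeded counting error but not the 2-fold threshold.

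The gene orange1.1t03504 (unplaced sequence, 53698712 to 53699697, minus strand) had 5732 fragments at 70 days in Dahongtiancheng and 1428 in Bingtangcheng, and at 50 days 2310 in Dahongtiancheng and 3690 in Bingtangcheng. Cs7g10740 (chromosome 7, 6971149 to 6972788, plus strand) had 4409 at 70 days in Dahongtiancheng and 1724 in Bingtangcheng, and at 50 days 2531 in Dahongtiancheng and 3459 in Bingtangcheng. Their levels were 4.001-fold and 2.55-fold higher in Dahongtiancheng at 70 days and 1.78-fold and 1.52-fold lower at 50 days. Both were lowest in 70-day Bingtangcheng. Cs5g18620 (chromosome 5, 18910255 to 18912037, plus strand) was also lowest there, with 609 fragments, beside 3881 in 70-day Dahongtiancheng, 1958 in 50-day Dahongtiancheng and 3622 in 50-day Bingtangcheng. It alone of these 4 passed the 2-fold threshold at 50 days, at 2.06-fold lower (1.95 to 2.18) in Dahongtiancheng.

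Low levels in 70-day Bingtangcheng and high levels in 70-day Dahongtiancheng were common in this direction. With library sums, the lowest library was 70-day Bingtangcheng in 69 of the 91 genes and 50-day Dahongtiancheng in 22. The highest was 70-day Dahongtiancheng in 60 and 50-day Bingtangcheng in 31. With TMM factors some genes changed sides. Cs7g09900 was then lowest in 50-day Dahongtiancheng, at 35.2 CPM against 39.7 in 70-day Bingtangcheng. Cs5g18620 was then highest in 70-day Dahongtiancheng, at 259 CPM against 233 in 50-day Bingtangcheng. These values include the added constant. In 31 genes both higher libraries, and likewise both lower ones, lay within 1.5 times of each other. In 11 the highest library was over 3 times the next, and in 12 the third highest was over 3 times the lowest. All 4 genes with a library at 0 fragments had that library at 70 days in Bingtangcheng, where a count of 0 allows up to 0.201 CPM.

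In some genes a single library stood far from the other 3. Cs8g18020 (chromosome 8, 20763309 to 20763785, plus strand) had 6811 fragments at 70 days in Dahongtiancheng and 780 in Bingtangcheng, and at 50 days 303 in Dahongtiancheng and 1258 in Bingtangcheng. It was named after its values were seen, as were Cs8g19290, Cs1g23710, orange1.1t03258 and the genes of the close pairs below. Cs8g19290 had 507 fragments at 70 days in Dahongtiancheng and 4 in Bingtangcheng, and at 50 days 35 in Dahongtiancheng and 81 in Bingtangcheng. Its level was 126-fold higher (49.0 to 465) in Dahongtiancheng at 70 days and 2.58-fold lower (1.72 to 3.95) at 50 days. In Cs8g18020 the 70-day Dahongtiancheng library stood far above the other 3, and in Cs8g19290 the 70-day libraries held both the highest and the lowest value.

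Of the Bingtangcheng-late genes, 2 were found in 2 libraries and had no fragment in the other two. Cs1g21100 (chromosome 1, 24050431 to 24052317, minus strand) had 0 fragments at 70 days in Dahongtiancheng and 285 in Bingtangcheng, and at 50 days 169 in Dahongtiancheng and 0 in Bingtangcheng. It was lower in Dahongtiancheng by at least 95.3-fold at 70 days, with an interval starting at 77.0, and at least 50.5-fold higher at 50 days, with an interval starting at 40.6. The gap between the second and the third highest of its values, 21.8 times, was the widest of the 133 genes.

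Cs3g17500 (chromosome 3, 21211583 to 21212701, plus strand) had 0 fragments at 70 days in Dahongtiancheng and 46 in Bingtangcheng, and at 50 days 73 in Dahongtiancheng and 0 in Bingtangcheng. Computed against 3 fragments, it was 15.4-fold lower in Dahongtiancheng at 70 days (interval from 12.02) and 21.8-fold higher at 50 days (interval from 17.3). Both genes are models of a single exon.

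The next genes by gap were low but measurable in at least 1 of their lower libraries. Cs5g01900 (chromosome 5, 765109 to 766542, minus strand) had 10 fragments at 70 days in Dahongtiancheng and 138 in Bingtangcheng, and at 50 days 77 in Dahongtiancheng and 1 in Bingtangcheng. It was 13.8-fold lower (7.31 to 29.5) in Dahongtiancheng at 70 days and 69.1-fold higher (12.03 to 2763) at 50 days. Cs7g25330 (chromosome 7, 25670607 to 25671884, plus strand) had 0 fragments at 70 days in Dahongtiancheng and 398 in Bingtangcheng, and at 50 days 181 in Dahongtiancheng and 31 in Bingtangcheng. The 70-day difference was the larger in Cs7g25330, at least 133-fold against 5.24-fold (3.56 to 7.93) at 50 days, while Cs5g01900 had the larger difference at 50 days.

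Cs3g20090 (chromosome 3, 23177432 to 23178874, plus strand) had 0 fragments at 70 days in Dahongtiancheng and 70 in Bingtangcheng, and at 50 days 52 in Dahongtiancheng and 6 in Bingtangcheng. Cs1g08130 (chromosome 1, 8666028 to 8667311, plus strand) had 9 at 70 days in Dahongtiancheng and 68 in Bingtangcheng, and at 50 days 51 in Dahongtiancheng and 7 in Bingtangcheng. Cs1g08130 was the most even of these, 7.58-fold lower (3.77 to 17.3) in Dahongtiancheng at 70 days and 6.53-fold higher (2.95 to 17.1) at 50 days.

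**Figure D3:**
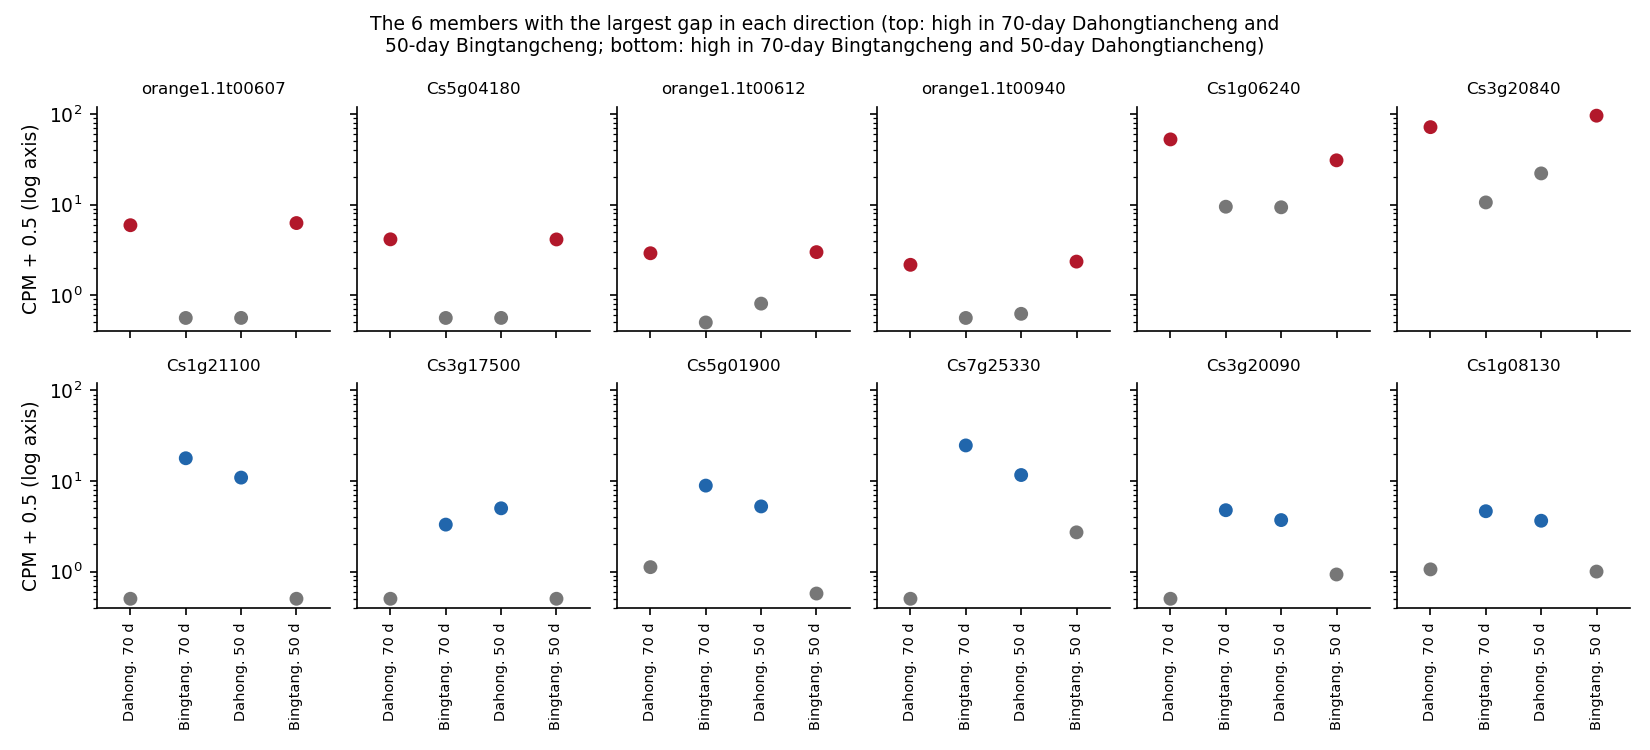
Level (CPM plus 0.5, log axis) in each of the 4 libraries for the 6 Dahongtiancheng-late genes (top) and the 6 Bingtangcheng-late genes (bottom) with the widest gap. Coloured points are the 2 higher libraries and grey points the 2 lower ones. In orange1.1t00607, Cs5g04180, Cs1g21100 and Cs3g17500 the lower libraries lie at or next to the floor of 0.5.

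Cs1g01700 stood apart from all other reversing genes by its level in CPM. It lies on chromosome 1, 840737 to 843924, on the minus strand, and had 67519 fragments at 70 days in Dahongtiancheng and 142729 in Bingtangcheng, and at 50 days 102947 in Dahongtiancheng and 51083 in Bingtangcheng. By fragments it ranked 1 among all genes in 70-day Bingtangcheng and in 50-day Dahongtiancheng, 7 in 70-day Dahongtiancheng and 2 in 50-day Bingtangcheng. Per length, on the deposited FPKM scale (fragments per kilobase per 1000000 fragments), its level was 2796 at 70 days in Dahongtiancheng and 5871 in Bingtangcheng, and at 50 days 3550 in Dahongtiancheng and 1912 in Bingtangcheng. The next Bingtangcheng-late gene by CPM, Cs3g05810, had at most 79.8 FPKM, but other reversing genes came closer per length. Bingtangcheng-late Cs8g19170 reached 199.7 FPKM in 70-day Bingtangcheng. Dahongtiancheng-late Cs8g18020 reached 1612 in 70-day Dahongtiancheng, and Dahongtiancheng-late Cs5g28270 reached 1359 in 50-day Bingtangcheng. The values of these last genes, from Cs8g19170 on, include the added constant.

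The reversal of Cs1g01700 was moderate in size. It was 2.12-fold lower (2.10 to 2.14) in Dahongtiancheng at 70 days and 1.81-fold higher (1.79 to 1.83) at 50 days. Its gap of 1.519 with library sums was just above the threshold of 1.5. It missed that threshold, and was not taken, with TMM factors (gap 1.32), with DESeq2 size factors (1.30) and with the deposited FPKM (1.27), although its folds above, which use TMM factors, kept opposite signs. Because of it the Bingtangcheng-late genes together held 0.432% of the fragments (0.429 to 0.436, exact 95% binomial interval) in Dahongtiancheng against 0.919% (0.914 to 0.924) in Bingtangcheng at 70 days, and 0.680% (0.676 to 0.684) in Dahongtiancheng against 0.380% (0.376 to 0.383) in Bingtangcheng at 50 days. Without it the other genes of this direction held 0.0155% at 70 days in Dahongtiancheng and 0.0510% in Bingtangcheng, and at 50 days 0.0466% in Dahongtiancheng and 0.0159% in Bingtangcheng. The choice of the genes by these levels fixed the direction of such shares, and their intervals cover counting error only.

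The other abundant Bingtangcheng-late genes varied in which stage showed the larger difference. Cs3g05810 (chromosome 3, 7653725 to 7656145, plus strand) had 581 fragments at 70 days in Dahongtiancheng and 979 in Bingtangcheng, and at 50 days 1757 in Dahongtiancheng and 292 in Bingtangcheng. It was 1.69-fold lower (1.52 to 1.88) in Dahongtiancheng at 70 days and 5.40-fold higher (4.76 to 6.13) at 50 days. Its reversal was therefore carried by the 50-day libraries.

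Cs5g09450 (chromosome 5, 6429408 to 6433419, plus strand) had 367 fragments at 70 days in Dahongtiancheng and 792 in Bingtangcheng, and at 50 days 594 in Dahongtiancheng and 316 in Bingtangcheng. Cs2g16040 (chromosome 2, 12795308 to 12810228, plus strand) had 110 at 70 days in Dahongtiancheng and 464 in Bingtangcheng, and at 50 days 526 in Dahongtiancheng and 128 in Bingtangcheng. Cs2g16040 was 4.23-fold lower (3.43 to 5.26) in Dahongtiancheng at 70 days and 3.69-fold higher (3.03 to 4.51) at 50 days. This was the most even reversal among the 4 genes of this direction most abundant by their second highest CPM. Like Cs1g01700, Cs5g09450 was not taken with TMM factors (gap 1.39), DESeq2 size factors (1.38) or FPKM (1.26).

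With library sums, the highest library over all 42 Bingtangcheng-late genes was 70-day Bingtangcheng in 25 and 50-day Dahongtiancheng in 17. The lowest was 50-day Bingtangcheng in 25 and 70-day Dahongtiancheng in 17. These splits depend on the scaling. With TMM factors some genes moved from 50-day Dahongtiancheng to 70-day Bingtangcheng as their highest library. Cs2g16040, for example, then had 31.5 CPM in 70-day Bingtangcheng and 30.8 in 50-day Dahongtiancheng, with the added constant included. Both higher and both lower libraries lay within 1.5 times of each other in 12 genes. The highest library was over 3 times the next in only 1 gene, Cs1g23710, and the third highest over 3 times the lowest in 2, Cs7g25330 and orange1.1t03258. Of these, orange1.1t03258 had 0 fragments at 70 days in Dahongtiancheng and 720 in Bingtangcheng, and at 50 days 313 in Dahongtiancheng and 148 in Bingtangcheng.

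Reversing genes were mostly weakly expressed, as were genes high in both libraries of a cultivar. The median of the second highest value was 6.48 CPM in the Dahongtiancheng-late and 7.07 CPM in the Bingtangcheng-late genes (each with 0.5 added). This value was under 5 in 33 of the 91 and 18 of the 42, and at least 20 in 24 and 4. Together 38.3% of the 133 were under 5 and 21.1% at 20 or more. Of the 141 genes high in both libraries of a cultivar 44.7% were under 5 and 11.3% at 20 or more, and of all 14949 genes at the floor 11.8% and 61.4%. Values of at least 100 were reached by 8 Dahongtiancheng-late genes and by Cs1g01700. Together the Dahongtiancheng-late genes held 0.397% of the fragments (0.394 to 0.3997) in Dahongtiancheng against 0.0921% (0.0907 to 0.0936) in Bingtangcheng at 70 days, and 0.156% (0.154 to 0.158) in Dahongtiancheng against 0.318% (0.316 to 0.321) in Bingtangcheng at 50 days. The direction of these differences was fixed by the choice of the genes, and the intervals cover counting error only.

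The gap that defined membership was mostly narrow. Its median was 1.76 in the Dahongtiancheng-late and 1.79 in the Bingtangcheng-late genes, and it reached 2 in 28 and 15. Just inside the threshold lay orange1.1t02225 and Cs2g21150, with gaps of 1.503 and 1.506, and just outside Cs7g29530 and Cs5g34450, with 1.4999 and 1.497. In the other direction Cs5g31130 and Cs1g01700 were just inside, with 1.510 and 1.519, and orange1.1t01353 and Cs3g08080 just outside, with 1.481 and 1.480. Cs7g29530, for example, had 72 fragments at 70 days in Dahongtiancheng and 16 in Bingtangcheng, and at 50 days 6 in Dahongtiancheng and 24 in Bingtangcheng, with the same 2 highest libraries. With the deposited FPKM in place of CPM the same thresholds took 137 and 69 genes, of which 67 and 28 were among the 91 and 42.

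The structure of the gene models was not used by the rule, and models without an intron were more frequent among the reversing genes by count. A model was counted as intronless where its length equalled its span on the genome. Plant genes without introns are often compact and include many members of large families, such as pentatricopeptide repeat proteins and the auxin-responsive SAUR genes, as well as copies that arose through an RNA intermediate. The files do not say which of these the models are. Of the 133 reversing genes 55 were intronless (41.4%), against 1908 of the 14949 genes at the floor of 2 (12.8%). The share was 34.1% (31 of 91) in the Dahongtiancheng-late and 57.1% (24 of 42) in the Bingtangcheng-late genes. In the genes high in both libraries of the same cultivar it was 26.2% (37 of 141). In those high in both 70-day libraries it was 19.4%, and in those high in both 50-day libraries 18.1%. No test was made of these shares.

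Weakly expressed genes were more often intronless, so the shares were also set side by side within ranges of level. At a second highest value from 2 to 5 the share was 36.4% in the 33 Dahongtiancheng-late and 61.1% in the 18 Bingtangcheng-late genes, against 29.7% of all genes in that range. From 5 to 20 it was 35.3% of 34 and 65.0% of 20, against 19.0%. At 20 and more it was 29.2% of 24 Dahongtiancheng-late genes, against 6.77%, while 0 of the 4 Bingtangcheng-late genes were intronless. The genes high in both libraries of a cultivar also lay above all genes in each range, with 31.7% of 63 from 2 to 5, 22.6% of 62 from 5 to 20 and 18.8% of 16 at 20 and more. In the lowest range the share of the Dahongtiancheng-late genes was thus near the background, and it was below the 39.7% of the 68 genes high in both 70-day libraries. It was also below the 39.3% of 28 genes high in both Dahongtiancheng libraries, where both Bingtangcheng libraries gave 25.7% of 35. From 5 to 20 the share was 27.0% of 122 genes high in both 70-day libraries and 18.7% of 701 high in both 50-day libraries.

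The share was also higher where the gap was wide. Among the genes with a gap of at least 2, 13 of 28 Dahongtiancheng-late (46.4%) and 11 of 15 Bingtangcheng-late genes (73.3%) were intronless. With a narrower gap these were 18 of 63 (28.6%) and 13 of 27 (48.1%). The same-cultivar pairs showed 34.4% of 64 genes with the wide gap and 19.5% of 77 with the narrow one. For both 70-day libraries the shares were 22.8% of 294 and 15.1% of 238, and for both 50-day libraries 19.6% of 1208 and 15.8% of 798. A higher share at a wide gap was thus not particular to the reversing genes. The gaps were not compared within ranges of level. All 5 Bingtangcheng-late genes with 0 fragments in 70-day Dahongtiancheng were intronless, whereas 0 of the 4 Dahongtiancheng-late genes with 0 fragments in 70-day Bingtangcheng were. These small counts were not set beside all genes with 0 fragments in the same libraries, and the contrast was not tested.

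**Figure D4:**
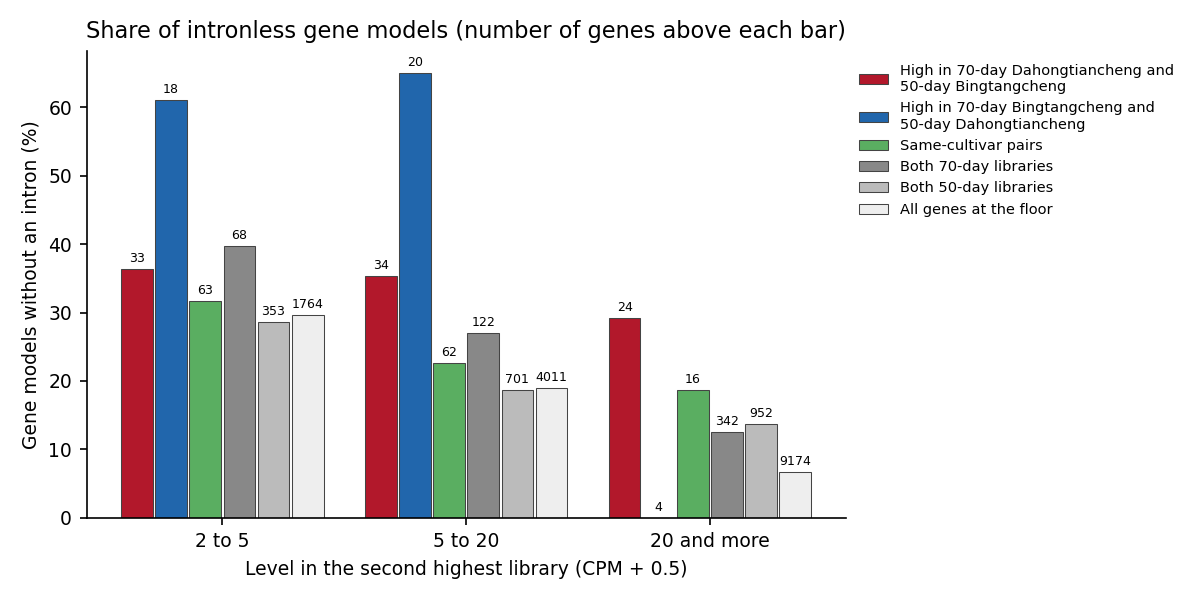
Percent of gene models without an intron, by the level in the second highest library, for the reversing genes in each direction, for genes high in both libraries of a cultivar or of a stage, and for all genes at the floor. Numbers above the bars count the genes. Bars of the Bingtangcheng-late genes reach 61.1% and 65.0% in the lower ranges and 0 of 4 genes at 20 and more.

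The difference in model length from all genes depended on level and was not tested. Over all levels the median model length was 1173 bases in the Dahongtiancheng-late and 1196 bases in the Bingtangcheng-late genes, against 1663 bases for all genes at the floor. The genes high in both libraries of a cultivar had a median of 1626 bases. From 2 to 5 the reversing genes were no shorter, with medians of 1218 bases (Dahongtiancheng-late) and 1222.5 bases (Bingtangcheng-late), against 1200 bases for all genes. From 5 to 20 the medians were 1098 and 1026 bases, against 1434. At 20 and more they were 874.5 bases in the 24 Dahongtiancheng-late and 1775.5 bases in the 4 Bingtangcheng-late genes, against 1886.5. Identifiers of the form orange1.1t, whose models lie on unplaced sequence, were 13 of the 91 and 4 of the 42, together 12.8% and close to the 13.5% of all genes at the floor. The plus strand held 69 of the 133.

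The reversing genes were spread over the genome. They were 0.350% of the genes at the floor on chromosome 4 (4 genes) and 0.474% on chromosome 6 (6 genes), and between 0.817% and 1.15% on every other chromosome and on unplaced sequence. On chromosome 4 the Dahongtiancheng-late genes numbered 1 and the Bingtangcheng-late genes 3. No 2 of the 133 genes were direct neighbours. A gene model before or after them overlapped in 8 cases. The counting method is not known to have used strand, so reads of overlapping models cannot be told apart.

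Among consecutive reversing genes 8 pairs lay within 100000 bases of each other by the files' coordinates, 4 of them in the same direction. On chromosome 5, Cs5g31090 (32821641 to 32822321), Cs5g31130 (32852108 to 32853016) and Cs5g31180 (32867629 to 32868258) followed each other with 4 gene models between each pair, and all 3 were intronless. Cs5g31090 had 88 fragments at 70 days in Dahongtiancheng and 181 in Bingtangcheng, and at 50 days 153 in Dahongtiancheng and 56 in Bingtangcheng. Cs5g31130 was alike, with 39 at 70 days in Dahongtiancheng and 64 in Bingtangcheng, and at 50 days 99 in Dahongtiancheng and 31 in Bingtangcheng. Cs5g31180 ran the other way, with 518 at 70 days in Dahongtiancheng and 140 in Bingtangcheng, and at 50 days 316 in Dahongtiancheng and 548 in Bingtangcheng.

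On chromosome 1, Cs1g23710 and Cs1g23760 also ran in opposite directions, 65574 bases apart. Cs1g23710 had 7 fragments at 70 days in Dahongtiancheng and 310 in Bingtangcheng, and at 50 days 25 in Dahongtiancheng and 5 in Bingtangcheng. Cs1g23760 had 89 at 70 days in Dahongtiancheng and 2 in Bingtangcheng, and at 50 days 31 in Dahongtiancheng and 249 in Bingtangcheng. Closeness on the chromosome thus went with either direction.

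The genes directly beside the Dahongtiancheng-late genes had the same 2 highest libraries in 24 of 118 cases at the floor (20.3%), against 11.8% of all genes at the floor. Beside the Bingtangcheng-late genes this was 3 of 49 (6.12%), against 6.89%. None of these neighbours passed the thresholds of the rule in a crossed direction, and no test was made of the difference.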

How the data were processed

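Poly(A) RNA of endocarp was sequenced, per the labels' protocols, in 4 libraries, 1 for each of 2 cultivars at 70 and 50 days. Not given in the sources used here: aligner, counter, strand, genome build and annotation. The deposited count per gene is a raw fragment number, per the file headers. The deposited scaled count is a signal, and for at least 92.0% of detected genes it equals the raw number multiplied by a constant of its library (within 1%), and it was used for this check alone. The FPKM values deposited by the authors served as an alternative and for levels per length. A header line repeated 1 time inside each file was skipped. The 600 Citrus_newGene models were left out of the selection and of all counts of genes tested.

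The genes and lists were chosen with earlier results of these data known. Selection used library sums. Ratios used TMM factors (edgeR 4.0.16, R 4.3.3), 0.927 (Dahongtiancheng) and 0.910 (Bingtangcheng) at 70 days and 1.07 (Dahongtiancheng) and 1.11 (Bingtangcheng) at 50 days, with a prior count of 2 for log2 ratios. With library sums the median log2 stage ratio of all tested genes shifted by -0.20 in Dahongtiancheng and -0.28 in Bingtangcheng. Each group has 1 library, so no test was run, and the only precision given is that of counting: PCR copies carry no molecular identifiers and are not separate molecules, and 1 fragment stood for 0.0576 to 0.0668 CPM. Named in each direction were the 6 genes with the widest gap, the 4 most abundant by their second highest CPM and the 2 on either side of the threshold. Of genes with 0 fragments in both lower libraries the 2 largest in each direction were to be named. Only the Bingtangcheng-late genes had any, and they had 2. Other genes are stated as named later. No longest runs of neighbours could be named, as there were 0 runs. Gene lists by function could not be filled. No reference sequence of these models was used, so none is printed. The scripts (Python 3.11.15, scipy 1.17.1) were tested on simulated data.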

Additional observations from a re-analysis of the deposited data

Results flagged for a closer look

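The cultivar differences of the reversing genes had opposite signs at the stages. In the Dahongtiancheng-late genes the median log2 ratio of Dahongtiancheng over Bingtangcheng was 1.92 at 70 days and -1.09 at 50 days. In the Bingtangcheng-late genes it was -1.68 at 70 days and 1.61 at 50 days. The difference between stages was not tested, because each stage has 1 library per cultivar, and its direction follows from how the genes were chosen.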

How the results depend on the processing

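No paired analysis was possible because each group has 1 library. The numbers of Dahongtiancheng-late and Bingtangcheng-late genes, 91 and 42, became 28 and 15 with a gap of at least 2, 184 and 74 with a looser gap midway between 1 and 1.5, 58 and 24 with a minimum of 5, and 137 and 69 with the deposited FPKM. With TMM factors, DESeq2 size factors, an added constant of 1 or 0.1, no minimum or all identifiers they stayed within 1.5 times. With TMM factors 74 of the 91 and 32 of the 42 genes were taken again. The counts of genes by their highest and lowest library were made with library sums only, and some genes change sides with TMM factors. Of the genes named for gap or level, Cs1g01700 and Cs5g09450 missed the gap with TMM factors, DESeq2 size factors and FPKM, and orange1.1t00940 missed the minimum with FPKM and with an added constant of 0.1. Genes high in both 70-day libraries numbered 848 with TMM factors, 880 with DESeq2 size factors, 938 with FPKM and 294 with a gap of 2, and those high in both 50-day libraries 1208 with a gap of 2. Genes high in both Dahongtiancheng libraries numbered 35 with a gap of 2, 139 with the looser gap, 41 with a minimum of 5, 113 with none and 140 with FPKM. Those high in both Bingtangcheng libraries numbered 29, 130 and 37 under the first 3 of these. The 68 genes with opposite calls at both stages became 22 at a fold of 4 and 30 at a floor of 5 CPM. The median log2 stage ratios of the Dahongtiancheng-late genes, 1.52 in Dahongtiancheng and -1.46 in Bingtangcheng, became 1.32 and -1.74 with library sums. The cause of these changes was not tested beyond the choice of threshold or scaling itself. Of 162 recomputed log2 ratios of named genes, 160 stayed within the 95% counting interval and 0 changed sign. The choice of the genes had fixed these signs. The other scalings shifted the median log2 cultivar ratio of all tested genes only by -0.053 to 0.027, so this count is no separate evidence. Counts of 0 to 3 fragments limit every fold built on them.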

Other observations

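The models named Citrus_newGene, which the selection left out, contained 15 genes that met the same thresholds in a crossed arrangement. These were 3.86% of the 389 such models whose second highest value reached 2, against 0.890% of the other genes. Adding these models also raised the genes high in both Dahongtiancheng libraries from 69 to 87. Those high in both Bingtangcheng libraries rose from 72 to 80, so a raised share was not particular to the crossed arrangement. The shares were not compared within ranges of level. Of the 15, all but 1 were high in 70-day Dahongtiancheng and 50-day Bingtangcheng. Citrus_newGene_657 had the most fragments, with 2990 at 70 days in Dahongtiancheng and 1486 in Bingtangcheng, and at 50 days 1110 in Dahongtiancheng and 3549 in Bingtangcheng. Citrus_newGene_591 had 613 fragments at 70 days in Dahongtiancheng and 2 in Bingtangcheng, and at 50 days 112 in Dahongtiancheng and 305 in Bingtangcheng. The exception, Citrus_newGene_358, had 10 at 70 days in Dahongtiancheng and 34 in Bingtangcheng, and at 50 days 25 in Dahongtiancheng and 9 in Bingtangcheng. These genes were named after their values were seen, and no test was made.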
